A study of Mus musculus with 8 samples.

Results

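The 10 genes described here encode the ligands and receptors of the vascular endothelial growth factor (VEGF) family and angiopoietin-2. They are the ligand genes Vegfa, Vegfb, Vegfc and Vegfd, the receptor genes Kdr, Flt1 and Flt4, the co-receptor genes Nrp1 and Nrp2, and Angpt2. They were chosen by symbol, and each symbol matched 1 of the 32285 genes in the matrix of every library. The libraries were made from cells of the femurs and tibiae of 8 female mice, 1 library per mouse. Control mice carried fl/fl alleles of Sox4, Sox11 and Sox12 (together called SOXC) and no Cre. SOXCOsxCre mice carried the same alleles and OsxCre, a tetracycline-repressed Cre transgene driven in bone-forming cells and their precursors, which doxycycline kept silent until weaning. Each genotype had 2 mice at 7 weeks and 2 at 13 weeks. The study describes pairs of mutant and control sisters, but the labels do not say which mice were sisters. No mouse carried OsxCre with wild-type SOXC alleles, so effects of the transgene and of the deletion cannot be told apart. The periosteum, the epiphyses and the flushed marrow were removed and haematopoietic cells were depleted with magnetic beads, so shares of cells are those of this preparation and not of the bone.

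VEGF ligands are secreted proteins. VEGFA acts through VEGFR2 (encoded by Kdr), the main signalling receptor of blood vessel endothelium, and binds VEGFR1 (Flt1) more tightly, a receptor often described as a decoy. VEGFB binds VEGFR1, while VEGFC and VEGFD act through VEGFR3 (Flt4), known from lymphatic endothelium and also made by the sinusoids of bone marrow. Neuropilin-1 and neuropilin-2 bind both VEGFs and class 3 semaphorins, and are found in neurons, vessels and mesenchymal cells. Angiopoietin-2 is a ligand of the endothelial receptor TIE2. In bone, VEGFA from hypertrophic chondrocytes and osteoblast lineage cells is known to guide the vessels on which bone formation depends.

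Cells were grouped by the expression of marker genes, with the 10 members and the 3 SOXC genes left out of the genes used for clustering. The names used are mesenchymal stem or stromal cells (Sca1+ and Lepr+ MSCs), Lepr+ osteoprogenitors (OPs), preosteoblasts (preOBs), osteoblasts (OBs), growth plate chondrocytes (GPCs) and hypertrophic GPCs, pericytes, endothelial cells, haematopoietic progenitors, and granulocytes or monocytes. Each name stands for cells that resemble that type by its markers. PreOBs and Lepr+ OPs both scored highest for the 11 osteoprogenitor markers and were told apart by their Lepr+ MSC markers, whose sum was 1216 to 2864 CPM in preOBs and 11268 to 19044 CPM in Lepr+ OPs. A level is given in CPM, the unique molecular identifiers (UMIs, each standing for 1 captured transcript) of the gene per 1000000 UMIs of that cell type in that mouse, after TMM scaling between mice. Kept cells numbered 6410 to 8753 per library, at a median of 7146 to 13204 UMIs, and replicate 1 of each group was sequenced more deeply than replicate 2. Libraries shared at most 24 cell barcodes. Sox4, the check of the deletion, was at 366 to 443 CPM in the Lepr+ MSCs of control mice and 149 to 208 CPM in those of SOXCOsxCre mice. Its level was also lower in mutant Lepr+ OPs, preOBs and OBs, by 1.40, 1.37 and 1.59 on the log2 scale (adjusted p = 0.000114, 0.000532 and 0.000736), whereas in endothelial cells the log2 difference was -0.21 ± 0.15 (SE, adjusted p = 1.0).

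In the mouse genome (build GRCm38, GENCODE annotation) Vegfa spans chromosome 17 from 46016993 to 46032369 on the minus strand, Nrp1 chromosome 8 from 128358604 to 128503363 on the plus strand, and Flt1 chromosome 5 from 147561604 to 147726011 on the minus strand. RefSeq gave a transcription start for 9 of the 10 genes, all but Angpt2. The 250 bases before a start are shown for 3 of them: Nrp1, whose level rose in mutant osteoblast lineage cells, Vegfa, the main ligand, and Flt1 as an endothelial receptor gene. They are written 5′ to 3′ in the direction of the gene, and capitals mark the letters AGGAAG, the core bound by ETS factors, on either strand.
Nrp1, chr8:128358823-128359072, plus strand: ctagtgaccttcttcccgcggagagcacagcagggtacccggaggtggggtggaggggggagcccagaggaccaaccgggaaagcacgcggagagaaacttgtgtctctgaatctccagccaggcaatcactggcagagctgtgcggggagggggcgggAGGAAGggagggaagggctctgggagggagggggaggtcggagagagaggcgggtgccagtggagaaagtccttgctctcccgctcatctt
Vegfa, chr17:46032378-46032627, minus strand: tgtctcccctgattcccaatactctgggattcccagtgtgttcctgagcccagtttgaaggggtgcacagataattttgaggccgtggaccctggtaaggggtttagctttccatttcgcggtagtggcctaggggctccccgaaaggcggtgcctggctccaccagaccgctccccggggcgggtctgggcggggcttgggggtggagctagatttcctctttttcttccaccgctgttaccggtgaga
Flt1, chr5:147726012-147726261, minus strand: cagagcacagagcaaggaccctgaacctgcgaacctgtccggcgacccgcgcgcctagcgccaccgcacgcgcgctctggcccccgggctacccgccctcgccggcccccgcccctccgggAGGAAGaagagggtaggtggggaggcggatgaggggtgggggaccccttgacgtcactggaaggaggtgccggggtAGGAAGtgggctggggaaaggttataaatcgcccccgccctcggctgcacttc
AGGAAG occurred in the Nrp1 window, starting 91 bases before the start, and in the Flt1 window at 129 and 53 bases before the start. The Nrp1 window begins at 128358823, inside the GENCODE span of the gene, so it does not lie upstream of that whole span. It was not in the Kdr or Flt4 windows, and 29.5% of all 32851 RefSeq promoters hold it in a window of the same length. The SOX cores ACAAT and ACAAAG, on either strand, were in none of the windows of the 9 members, against 38.8% of all promoters. The hypoxia response core ACGTG was in the window of a second RefSeq start of Vegfa, inside the gene, and in no other window of a member, against 16.6% of all promoters. These are letter matches in short windows and not binding sites.

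Among the 11 cell types, Vegfa and Vegfc were both highest in Lepr+ MSCs. Vegfa was highest in Lepr+ MSCs, at 341 ± 74.8 CPM (SD, n = 4 control mice), followed by Lepr+ OPs at 238 ± 42.5 CPM, hypertrophic GPCs at 164 ± 62.4 CPM and preOBs at 162 ± 44.1 CPM. Hypertrophic GPCs and preOBs did not differ by more than their spread. GPCs were at 79.5 ± 25.3 CPM, and OBs, at 49.0 ± 13.3 CPM, were within the spread of pericytes and Sca1+ MSCs. In endothelial cells Vegfa was at 30.3 ± 8.42 CPM, which did not differ beyond the spread from the 34.8 ± 14.04 CPM of granulocytes or monocytes. Vegfc was at 329 ± 37.3 CPM in Lepr+ MSCs, 109 ± 13.8 CPM in Lepr+ OPs and 23.2 ± 4.89 CPM in preOBs, against 2.57 ± 0.796 CPM in OBs. Endothelial cells as a whole held 92.1 ± 37.9 CPM of Vegfc, which did not differ from Lepr+ OPs beyond the spread, and within them the arterial cells held 295 to 461 CPM in the 8 mice, the capillary cells 15.6 to 59.8 CPM and the sinusoidal cells 8.69 to 34.8 CPM. The arterial levels overlapped with those of Lepr+ MSCs, at 273 to 368 CPM. Vegfb was at a low level across types, from 34.8 ± 22.2 CPM in Sca1+ MSCs to 2.89 ± 0.392 CPM in OBs, and neighbours among its highest 5 types did not differ beyond their spread. Vegfd gave 107 UMIs in all kept cells of the 8 libraries, was at most 1.99 CPM on average in any control cell type, and gave 0 UMIs in haematopoietic progenitors and in granulocytes or monocytes, which allows levels of up to 0.155 and 0.22 CPM over the 8 mice. It passed the filter on low counts in no cell type and was not tested.

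**Figure D1:**
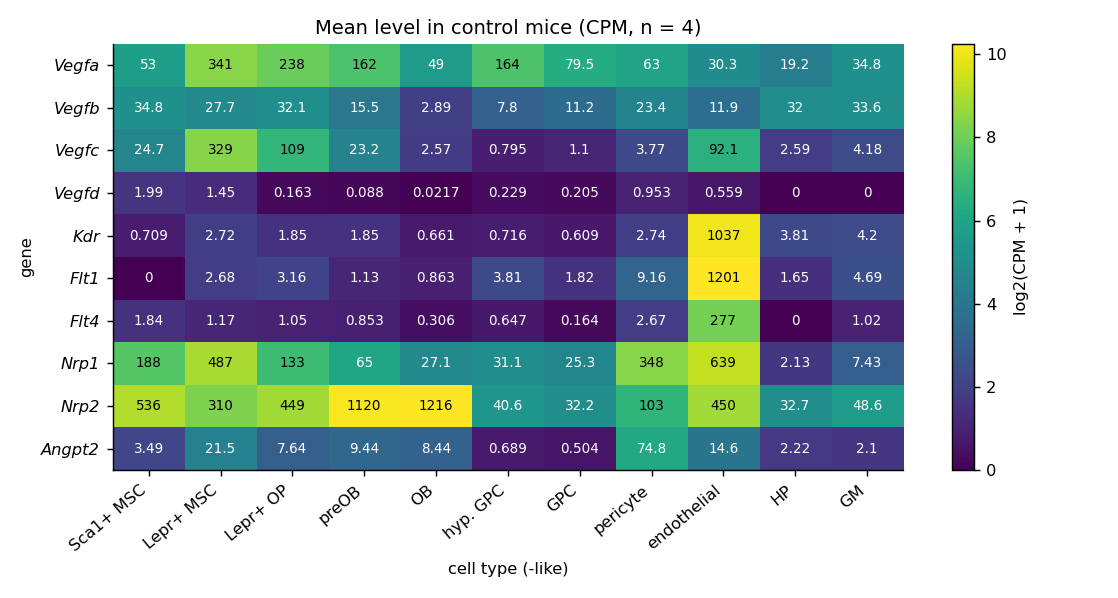
Mean level of each of the 10 genes (rows) in 11 cell types (columns) of the 4 control mice. Numbers are CPM and colour is log2(CPM + 1). HP stands for haematopoietic progenitors, GM for granulocytes or monocytes and hyp. for hypertrophic. Kdr, Flt1 and Flt4 are highest in the endothelial column, at 1037, 1201 and 277 CPM, whereas Nrp2 peaks in OBs at 1216 CPM and Vegfa and Vegfc in Lepr+ MSCs.

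The 3 VEGF receptors were endothelial in every mouse. Kdr was at 1037 ± 135 CPM in control endothelial cells and at most 4.202 CPM on average elsewhere, Flt1 at 1201 ± 131 CPM against at most 9.16 CPM, and Flt4 at 277 ± 63.5 CPM against at most 2.67 CPM. The endothelial subtypes differed in their receptors. Flt4 in the 8 mice was at 389 to 569 CPM in sinusoidal cells, 144 to 292 CPM in capillary cells and 33.8 to 85.3 CPM in arterial cells, with no overlap. Kdr was at 1052 to 1297 CPM in sinusoidal, 844 to 1192 CPM in capillary and 425 to 714 CPM in arterial cells, so that arterial cells stood below the others in every mouse. Flt1 was more even, at 781 to 1113 CPM in sinusoidal, 1061 to 1392 CPM in capillary and 1005 to 1381 CPM in arterial cells. Subtypes were clusters of these same cells, so these are descriptions without a test. Of the 1144 capillary cells, 876 were in a cluster named by 3 of the 9 capillary markers. A sub-cluster of 357 cells with 7 of the 11 arterial markers was left unnamed. Arterial cells numbered 563 here but 1003 and 1075 in the 2 other clusterings, for which these subtype levels are not given.

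The co-receptors and Angpt2 were shared between vessels and stroma. Nrp1 was highest in endothelial cells, at 639 ± 92.1 CPM, then in Lepr+ MSCs at 487 ± 72.4 CPM and pericytes at 348 ± 89.1 CPM, and each of these steps was larger than the spread. Along the osteoblast lineage of control mice the Nrp1 level fell in order from Lepr+ MSCs to Lepr+ OPs (133 ± 15.7 CPM), preOBs (65.0 ± 8.93 CPM) and OBs (27.1 ± 5.20 CPM). Nrp2 ran the other way, from 310 ± 50.3 CPM in Lepr+ MSCs and 449 ± 12.2 CPM in Lepr+ OPs to 1120 ± 282 CPM in preOBs and 1216 ± 193 CPM in OBs, the last pair not differing beyond the spread. Within endothelial cells Nrp2 was at 598 to 699 CPM in sinusoidal, 450 to 662 CPM in capillary and 102 to 138 CPM in arterial cells, while Nrp1 was at 370 to 566 CPM in sinusoidal and 670 to 963 CPM in arterial cells. Angpt2 was highest in pericytes, at 74.8 ± 12.1 CPM, followed by Lepr+ MSCs at 21.5 ± 3.82 CPM and endothelial cells at 14.6 ± 2.59 CPM. In OBs it was at 8.44 ± 2.62 CPM.

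Because OBs made up 59.3% of all UMIs on average, low levels there still gave many transcripts. Of the Vegfa UMIs of a library, 37.2% ± 6.30 (SD, n = 8 mice) were in OBs, 17.8% ± 4.26 in Lepr+ MSCs and 16.3% ± 6.87 in hypertrophic GPCs. The share in hypertrophic GPCs was 11.5% ± 5.41 at 7 weeks and 21.1% ± 4.48 at 13 weeks (n = 4 mice each), below and above the means of 17.9% and 17.8% in Lepr+ MSCs. Hypertrophic GPCs also held 3.72% to 5.36% of all UMIs at 7 weeks and 6.39% to 8.41% at 13 weeks. The part of this in their share of Vegfa was not tested. Vegfc UMIs were 55.9% ± 9.01 in Lepr+ MSCs and 10.4% ± 4.63 in endothelial cells. Between 85.3% and 86.4% of the Kdr, Flt1 and Flt4 UMIs were in endothelial cells, which held 2.8% of all UMIs. OBs held 88.1% ± 1.49 of the Nrp2 UMIs and 65.2% ± 8.69 of the Angpt2 UMIs. The share of Nrp1 UMIs in OBs was 25.5%, 17.2%, 28.3% and 22.9% in the control mice and 43.1%, 32.5%, 65.6% and 50.1% in the SOXCOsxCre mice, without overlap. In the same order OBs held 52.3%, 59.1%, 61.3% and 53.9% of all UMIs in control and 68.4%, 64.5%, 64.2% and 50.8% in SOXCOsxCre mice. The part of this in their share of Nrp1 was not tested. For that Nrp1 share, over 4 against 4 mice, the exact two-sided permutation test gave p = 0.0286, the smallest it can give. It was 0.669 after adjustment over the 117 pairs of gene and cell type. Of these 117 pairs 5 had p under 0.05 by genotype and 12 by age, and none passed the adjustment. As p cannot fall below 0.0286, a pair could pass only if a large part of the 117 reached that value together. The adjusted values therefore cannot decide about single pairs. The test by genotype pooled the ages and did not pair the mice.

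**Figure D2:**
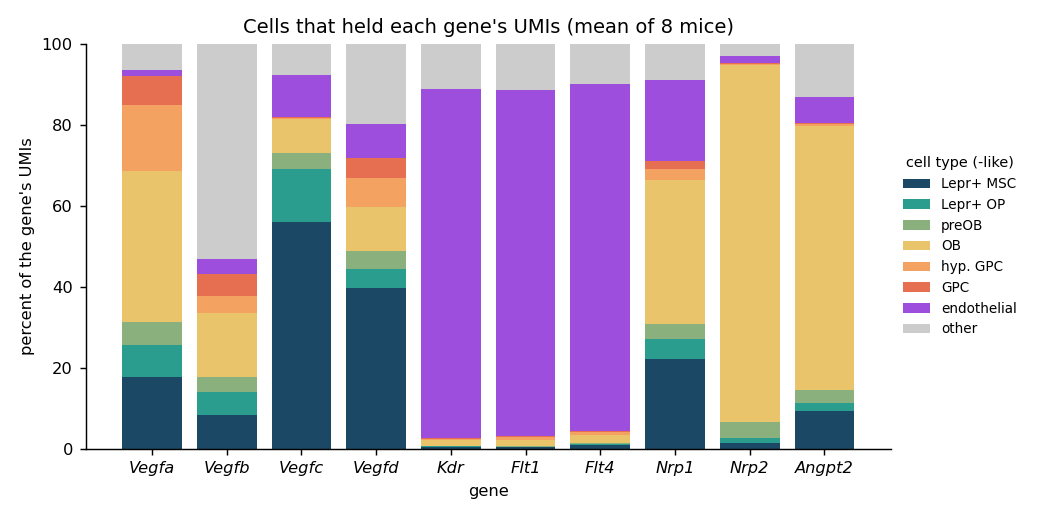
Percent of each gene's UMIs (vertical axis) held by each cell type, mean of the 8 mice. Endothelial cells (violet) hold 85.3% to 86.4% of Kdr, Flt1 and Flt4, OBs (yellow) hold 88.1% of Nrp2, and Vegfa is split between OBs, Lepr+ MSCs and hypertrophic GPCs. Grey stands for all other cells, and Vegfd rests on 107 UMIs.

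The genotypes were compared in each cell type with UMIs summed per mouse, in 90 pairs of member and cell type that passed the filter on low counts. Over both ages 4 pairs were higher in SOXCOsxCre mice and 0 were lower by edgeR (adjusted p at most 0.05). With the control and mutant of an age and number paired as a replicate block, 4 were higher and 3 lower, the latter being Vegfa in Lepr+ OPs, preOBs and OBs. In that paired fit 0.78% of all tests were called higher and 0.81% lower. Without pairing the 4 were Nrp1 in Lepr+ OPs, preOBs and OBs and Nrp2 in pericytes. In the unpaired fit over all genes and the same 14 cell types and subtypes, 0.145% of tests were called higher and 0.174% lower. At an unadjusted p under 0.05, 10 pairs were higher and 5 were lower, and DESeq2 also called 4 higher and 0 lower. Over all genes, between 278 of 11777 tests in GPCs and 1694 of 14596 in OBs had such an unadjusted p. Shares over all genes by DESeq2 are not given. At 7 weeks alone 0 pairs were called (0.0383% of all tests), with 12 at an unadjusted p under 0.05 and 2 called by DESeq2. Over all genes, 134 of 7908 tests in sinusoidal cells to 892 of 14596 in OBs had such an unadjusted p. At 13 weeks 2 were called, Nrp1 in preOBs and in OBs (0.0635% of all tests). The difference of the genotype effect between ages was called in 0 pairs by edgeR and by DESeq2 (0% of all tests by edgeR), with 7 at an unadjusted p under 0.05. Over all genes, 168 of 14596 tests in OBs to 197 of 4919 in Sca1+ MSCs had such an unadjusted p.

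Nrp1 was higher in the osteoblast lineage of SOXCOsxCre mice. In OBs its level was 32.5 and 20.1 CPM in 7-week-old control mice and 26.6 and 29.0 CPM in 13-week-old control mice. In SOXCOsxCre OBs it was 57.4 and 49.2 CPM at 7 weeks and 109 and 113 CPM at 13 weeks. Every mutant stood above every control, and the 13-week mutants stood above the 7-week mutants. The difference over both ages was 1.51 ± 0.14 on the log2 scale (SE), or 2.84-fold (adjusted p = 0.0013). In preOBs the levels were 76.2, 63.2, 66.2 and 54.5 CPM in control mice and 130, 128, 205 and 254 CPM in SOXCOsxCre mice, 1.40 ± 0.16 on the log2 scale, or 2.64-fold (adjusted p = 0.000556). The groups again did not overlap. In Lepr+ OPs they were 152, 116, 140 and 126 CPM in control mice and 210, 194, 225 and 267 CPM in mutants, 0.74 ± 0.15 on the log2 scale, or 1.67-fold (adjusted p = 0.0219). That call was lost when only cells under 5% mitochondrial UMIs were kept (log2 0.32, adjusted p = 0.785) and without 5 of the 8 mice in turn (adjusted p 0.0598 to 0.115), which were the control mouse 7 weeks replicate 2, the SOXCOsxCre mouse 7 weeks replicate 1, both control mice of 13 weeks and the SOXCOsxCre mouse 13 weeks replicate 2.

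No such difference was called in Lepr+ MSCs, which had the most Nrp1 of the lineage in control mice. The levels overlapped, at 379 to 532 CPM in control and 436 to 545 CPM in SOXCOsxCre mice. In endothelial cells they were 515 to 734 CPM and 487 to 691 CPM, a log2 difference of -0.12 ± 0.15 (SE, adjusted p = 1.0). In hypertrophic GPCs they were 27.5 to 38.8 CPM and 36.9 to 56.4 CPM (log2 difference with unadjusted p = 0.0048 but adjusted p = 1.0). At 13 weeks the log2 difference was 2.00 in OBs and 1.92 in preOBs (adjusted p = 0.011 and 0.00326). The call in OBs was lost without replicate 1 of the control or of the SOXCOsxCre mice of 13 weeks (adjusted p = 0.0947 and 0.0691). The difference was, at 7 weeks, 1.02 and 0.88 (adjusted p = 0.119 and 0.258). With the numbered control and mutant of an age paired as a replicate block, the 7-week differences were 1.05 in OBs, 0.88 in preOBs and 0.60 in Lepr+ OPs (adjusted p = 0.00395, 0.0141 and 0.0308). The 13-week difference in Lepr+ OPs was 0.89 in both fits, with adjusted p = 0.172 without the block and 0.000837 with it. The differences between ages, 0.98 in OBs and 1.03 in preOBs, had unadjusted p = 0.0064 and 0.0046 and adjusted p of 1.0. With no filter on low counts the difference between ages in OBs was called (log2 0.99, adjusted p = 0.0299). OBs fell into 7 clusters, each with at least 73 cells in every mouse, and the ratio of the mutant to the control mean of Nrp1 was 2.28 to 3.14 in each of them. The sum of the Lepr+ MSC markers in OBs, cells with more Nrp1, was 161 to 182 CPM at 7 weeks and 207 to 263 CPM at 13 weeks, and was 162 to 263 CPM in control against 161 to 234 CPM in mutant mice.

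**Figure D3:**
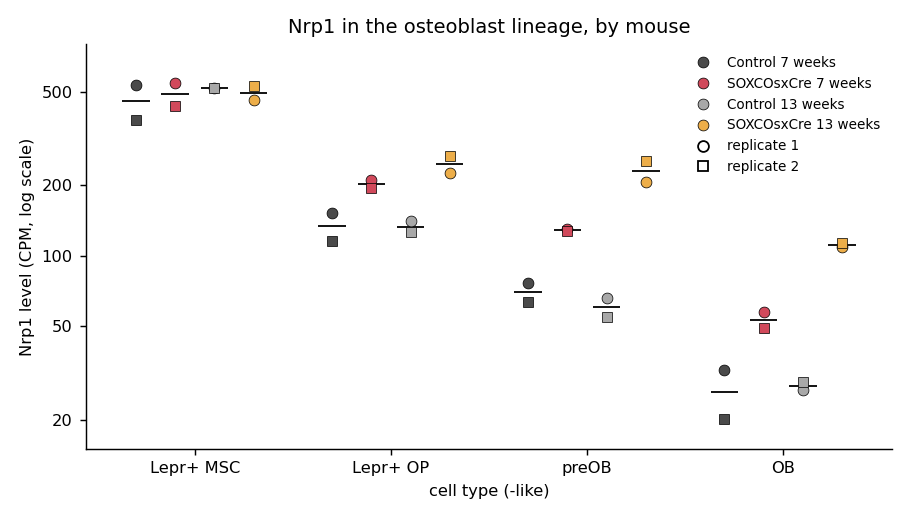
Nrp1 level in each mouse (CPM, log axis) in Lepr+ MSCs, Lepr+ OPs, preOBs and OBs. Points are mice, circles replicate 1 and squares replicate 2, and bars are group means. The SOXCOsxCre mice (red and orange) lie above all control mice in OPs, preOBs and OBs and overlap with them in Lepr+ MSCs.

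Vegfa was called lower in SOXCOsxCre Lepr+ OPs, preOBs and OBs when mice were paired by age and number. It was not called in any of them by the unpaired fit with the filter on low counts. The study names Vegfa among lower genes, from lists combined over Lepr+ MSCs, OPs and preOBs and both ages of these same mice. The choice of Vegfa is therefore not independent. Those lists came from tests on single cells with another threshold, whereas the mouse is the unit here. In OBs the levels were 49.99 and 39.2 CPM in 7-week-old and 67.4 and 39.3 CPM in 13-week-old control mice, against 42.6 and 27.7 CPM and 31.8 and 30.9 CPM in SOXCOsxCre mice. The groups overlapped, but each mutant was below the control mouse with its age and number. Without pairing the log2 difference was -0.55 ± 0.19 (SE, adjusted p = 0.249), and with the replicate block it was -0.54 ± 0.11 (adjusted p = 0.0171). It was also called with no filter on low counts (adjusted p = 0.000222), a fit that called 7 pairs in place of 4. At 13 weeks alone the difference in OBs was -0.77 without pairing (adjusted p = 0.466) and -0.73 with the block (adjusted p = 0.0451). With no filter on low counts and no pairing it was -0.76 (adjusted p = 0.000747). In preOBs the levels were 177, 119, 216 and 134 CPM in control and 120, 107, 94.4 and 116 CPM in mutant mice, -0.57 ± 0.19 without pairing (adjusted p = 0.301) and -0.55 ± 0.14 with the block (adjusted p = 0.04). In Lepr+ OPs they were 280, 181, 256 and 236 CPM in control and 246, 159, 174 and 172 CPM in mutant mice, -0.35 ± 0.17 without pairing (adjusted p = 0.621) and -0.35 ± 0.10 with it (adjusted p = 0.0451). With each mouse left out, the unpaired Vegfa difference ranged from -0.73 to -0.33 in OBs, -0.71 to -0.37 in preOBs and -0.52 to -0.17 in Lepr+ OPs. Replicate 1, the deeper library, had more Vegfa than replicate 2 in OBs of all 4 groups.

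In Lepr+ MSCs, the cells with the most Vegfa, the levels were 279 to 442 CPM in control and 247 to 455 CPM in SOXCOsxCre mice, a log2 difference of -0.05 ± 0.20 (adjusted p = 0.99, and 0.895 with the block). In hypertrophic GPCs they were 125, 111, 249 and 173 CPM in control and 168, 166, 168 and 206 CPM in mutant mice, 0.16 ± 0.15 on the log2 scale (adjusted p = 1.0). For Lepr+ MSCs, Lepr+ OPs and preOBs summed together the difference was -0.26 ± 0.19 (adjusted p = 0.857, and 0.259 with the block). With each mouse left out, the difference ranged from -0.44 to -0.067 in these summed cells and from 0.044 to 0.31 in hypertrophic GPCs. The OB clusters showed mutant to control ratios of Vegfa between 0.587 and 0.821. Vegfc in Lepr+ MSCs was at 288 to 362 CPM in control and 273 to 368 CPM in mutant mice, so the ligand of VEGFR3 overlapped between genotypes.

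**Figure D4:**
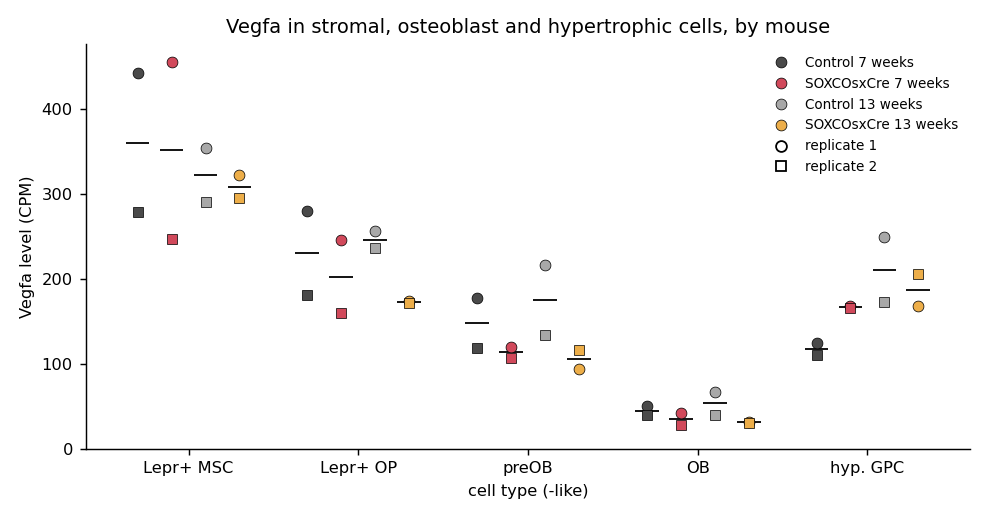
Vegfa level in each mouse (CPM) in 4 cell types of the osteoblast lineage and in hypertrophic GPCs. Points are mice, circles replicate 1 and squares replicate 2, and bars are group means. Replicate 1 lies above replicate 2 in all 4 groups of OBs, and the mutants lie below the control of the same age and number in Lepr+ OPs, preOBs and OBs.

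Nrp2 was called higher in SOXCOsxCre pericytes, cells in which the sum of osteoblast markers also varied between mice, as given below. The Nrp2 levels were 58.4, 58.7, 213 and 82.6 CPM in control mice and 503, 177, 246 and 465 CPM in mutants, 1.85 ± 0.34 on the log2 scale, or 3.60-fold (adjusted p = 0.0346). The 7-week control mice were the lowest, and the second mutant of 7 weeks, at 177 CPM, was below the control mouse at 213 CPM. In the same order of mice the sum of the 17 osteoblast markers in pericytes was 5672, 5804, 31991 and 4410 CPM in controls and 50976, 19074, 62038 and 69084 CPM in mutants, against at least 165657 CPM in OBs. Pericytes were few, at 24 to 206 cells per mouse. The call was lost without the control mouse 7 weeks replicate 2 (adjusted p = 0.0616), without the SOXCOsxCre mouse 7 weeks replicate 1 (log2 1.42, adjusted p = 0.0892), with no integration (adjusted p = 0.105) and with the replicate block (adjusted p = 0.0526). Counts were not corrected for free RNA, and the part of osteoblast RNA in the Nrp2 difference was not tested. In OBs Nrp2 was at 947 to 1406 CPM in control and 1167 to 1299 CPM in mutant mice, a log2 difference of 0.03 ± 0.13 (SE, adjusted p = 0.974).

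For the receptors in endothelial cells no genotype difference was called. The log2 differences over both ages were -0.06 ± 0.16 for Kdr, -0.09 ± 0.15 for Flt1 and -0.04 ± 0.15 for Flt4 (SE, each adjusted p = 1.0). In the 3 endothelial subtypes the Kdr and Flt1 differences lay between -0.16 and -0.04, and the Flt4 difference was 0.57 ± 0.29 in arterial cells (adjusted p = 0.998). Angpt2 in OBs was 7.40, 5.42, 9.41 and 11.5 CPM in control and 9.10, 7.73, 12.3 and 12.4 CPM in mutant mice. Its log2 difference of 0.32 was not called without pairing (adjusted p = 0.361), and with the replicate block it was 0.33 ± 0.08 (adjusted p = 0.0402). Kdr in Lepr+ MSCs was 4.69 and 3.94 CPM in control mice of 7 weeks and 1.43 and 0.8288 CPM in those of 13 weeks, against 10.7, 12.5, 2.69 and 4.195 CPM in the mutants (log2 1.51 ± 0.34, adjusted p = 0.152, and 0.0082 with no filter on low counts). There the sum of 14 endothelial markers was 153 to 255 CPM in control and 278 to 297 CPM in mutant mice.

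Between 7 and 13 weeks 2 pairs of member and cell type were higher (0.968% of all tests) and 4 were lower (1.03% of all tests) by edgeR, and 4 were higher and 3 lower by DESeq2. DESeq2 also called Nrp1 higher with age in OBs (log2 0.57, adjusted p = 0.00751), which edgeR did not (log2 0.57 ± 0.14, adjusted p = 0.0868). Age cannot be told apart from litter or day of preparation. Vegfc rose and Flt4 fell in endothelial cells as a whole. The Vegfc levels were 61.8, 57.3, 43.9 and 60.0 CPM at 7 weeks and 131, 118, 166 and 96.4 CPM at 13 weeks, without overlap, a log2 difference of 1.197 ± 0.18 (SE, adjusted p = 0.00162). The Flt4 levels were 347, 302, 399 and 340 CPM at 7 weeks and 264, 197, 195 and 187 CPM at 13 weeks, -0.72 ± 0.15 on the log2 scale (adjusted p = 0.0112). The ages did not overlap here either. Over the same ages the arterial cells, which had the most Vegfc and the least Flt4, were 8.21% to 17% of endothelial cells at 7 weeks and 24.5% to 36.3% at 13 weeks. Another 9.80% to 18.4% of endothelial cells were left unnamed, mostly a sub-cluster of 357 cells with 7 of the 11 arterial markers and Cxcl12 as its leading gene. Other clusterings, compared after seeing the data, gave arterial shares of 22.0% to 33.6% at 7 weeks and 39.8% to 52.2% at 13 weeks at resolution 1.5, and of 22.1% to 33.5% and 40.1% to 48.8% with no integration. The sinusoidal cells, which had the most Flt4, were 34.7% to 49.7% at 7 weeks and 16.6% to 27.0% at 13 weeks. The part of these shares in the Vegfc and Flt4 differences was not tested. Within arterial cells the Vegfc difference was 0.19 ± 0.18 (adjusted p = 0.874), but 0.59 ± 0.17 at resolution 1.5 (adjusted p = 0.138) and 0.61 ± 0.16 with no integration (adjusted p = 0.0818), and within capillary cells 0.36 ± 0.30 (adjusted p = 0.922). Within sinusoidal cells the Flt4 difference was -0.19 ± 0.18 (adjusted p = 0.968). Within capillary cells it was -0.68 ± 0.18 (adjusted p = 0.0816), and -0.73 with no filter on low counts (adjusted p = 0.0305). Within arterial cells it was 0.55 ± 0.29 (adjusted p = 0.665), turning to -0.36 ± 0.19 and -0.44 ± 0.19 in the other clusterings (adjusted p = 0.6 and 0.413). The Flt4 call was lost without the control mouse 13 weeks replicate 2 (adjusted p = 0.0572), or either SOXCOsxCre mouse of 13 weeks (adjusted p = 0.068 and 0.0581). Kdr and Flt1 differed by -0.16 ± 0.16 and 0.28 ± 0.15 in all endothelial cells (adjusted p = 0.691 and 0.359).

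**Figure D5:**
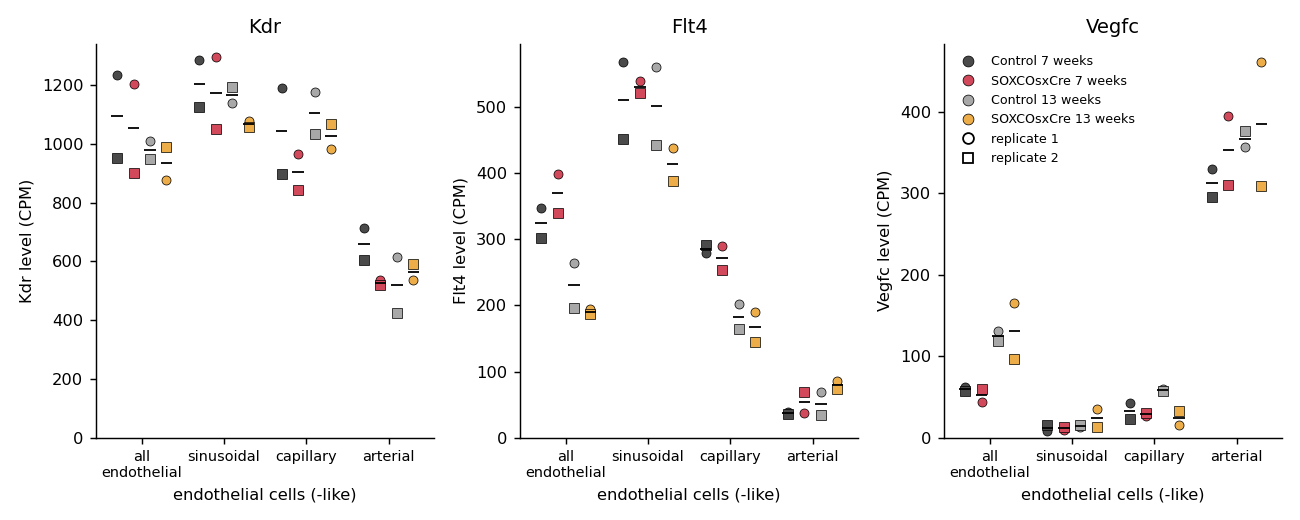
Levels (CPM) of Kdr, Flt4 and Vegfc in each mouse, in all endothelial cells and in the sinusoidal, capillary and arterial cells among them. Points are mice, circles replicate 1 and squares replicate 2, and bars are group means. In all endothelial cells Vegfc is at 43.9 to 61.8 CPM at 7 weeks and 96.4 to 166 CPM at 13 weeks, whereas in arterial cells the ages overlap.

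The other age differences were in cells where the genes were near 0, or small. Kdr in OBs was 0.766, 1.05, 1.34 and 1.07 CPM at 7 weeks and 0.358, 0.464, 0.356 and 0.198 CPM at 13 weeks (log2 -1.61 ± 0.26, adjusted p = 0.0165). Flt4 in OBs was 0.303 to 0.735 CPM and 0.0283 to 0.206 CPM (log2 -2.30 ± 0.47, adjusted p = 0.0424), and Kdr in Lepr+ MSCs 3.94 to 12.5 CPM and 0.8288 to 4.195 CPM (log2 -1.81 ± 0.34, adjusted p = 0.0473). The Kdr call in Lepr+ MSCs was lost by DESeq2 (adjusted p = 0.0751) and without any 1 of the 8 mice (adjusted p between 0.0757 and 0.175). The Flt4 call in OBs was lost without any but the control mouse 7 weeks replicate 1 and the SOXCOsxCre mouse 13 weeks replicate 1 (adjusted p up to 0.134). The Flt4 call was also lost with library totals in place of TMM (adjusted p = 0.0559). Without that SOXCOsxCre mouse the Flt4 difference was -3.36 on the log2 scale, and with the 5% mitochondrial limit it was -3.01. The Kdr call in OBs was lost without the control mouse 7 weeks replicate 2, the SOXCOsxCre mouse 7 weeks replicate 1, the control mouse 13 weeks replicate 1 or the SOXCOsxCre mouse 13 weeks replicate 2 (adjusted p up to 0.0662). The endothelial marker sum in OBs was 33.2 to 52.0 CPM at 7 weeks and 23.5 to 33.2 CPM at 13 weeks, and endothelial cells were 3.75% to 10.7% and 2.37% to 3.42% of kept cells. Per Flt1 UMI there were 0.879 Kdr UMIs and 0.415 Flt4 UMIs in OBs, against 0.950 and 0.290 in endothelial cells. Free RNA was not corrected for, and the part of RNA from endothelial cells in these differences was not tested. Angpt2 in OBs rose from 5.42 to 9.10 CPM at 7 weeks to 9.41 to 12.4 CPM at 13 weeks, 0.63 ± 0.13 on the log2 scale (adjusted p = 0.0413), and that call was lost with the 5% mitochondrial limit (adjusted p = 0.0516) and without any mouse but the control mouse 7 weeks replicate 1 (adjusted p up to 0.135). Vegfa in hypertrophic GPCs was at 111 to 168 CPM at 7 weeks and 168 to 249 CPM at 13 weeks. The ages met at 168 CPM, in SOXCOsxCre mice, and edgeR did not call the difference (log2 0.50 ± 0.15, adjusted p = 0.0665). It was called by DESeq2 (adjusted p = 0.0494), with no filter (0.0206) and without the control mouse 13 weeks replicate 2 (0.0296).

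Other genes of the pathway were counted in the same fits, in 4 lists of 67 genes. By genotype 0 of 677 pairs of gene and cell type were called by edgeR, with 22 higher and 22 lower at an unadjusted p under 0.05, and 1 was called by DESeq2. Over all genes, between 278 of 11777 tests in GPCs and 1694 of 14596 in OBs had such an unadjusted p. With age 19 pairs were higher and 14 lower by edgeR (18 and 14 by DESeq2), where 0.968% of all tests were called higher and 1.03% lower. Of the genes induced by VEGF in endothelium 9 pairs of 105 were higher and 3 lower, of which 3 of the higher were in endothelial or capillary cells, 3 in GPCs, 2 in hypertrophic GPCs and 1 in Lepr+ OPs. Over all genes, 3.08% of tests were called higher and 3.12% lower with age in GPCs, and 3% and 3.76% in hypertrophic GPCs. These shares were 2.17% and 1.75% in endothelial cells, 0.38% and 0.285% in capillary cells, and 0.37% and 0.379% in Lepr+ OPs. Capillary cells are part of the endothelial cells, so their UMIs count in both. Of the receptor signal relay 4 of 257 were higher and 0 lower, of hypoxia factors and targets 0 of 188 were higher and 1 lower, and of the other VEGF, angiopoietin and semaphorin partners 6 of 127 were higher and 10 lower. Some of these genes are also markers of an endothelial subtype or act in other cells. The 5 with the lowest adjusted p were Esm1, Sema3g, Sema3a, Egr3 and, in a further cell type, Esm1 again.

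Esm1, a proteoglycan gene known from endothelial tip cells and here also among the leading genes of the Lepr+ MSC cluster, was at 107 to 183 CPM in Lepr+ OPs at 7 weeks and 239 to 475 CPM at 13 weeks (log2 1.40 ± 0.17, adjusted p = 0.000546). In capillary cells it was at 31.9 to 71.0 CPM and 93.3 to 218 CPM (log2 1.42 ± 0.24, adjusted p = 0.00336), a call that was lost without the SOXCOsxCre mouse 13 weeks replicate 2 (adjusted p = 0.104). With no integration the difference in capillary cells was 2.13 on the log2 scale (adjusted p = 0.00181). The semaphorin genes, whose products bind neuropilins, moved in opposite directions in endothelial cells. Sema3g, an arterial gene that was also among the arterial markers, was at 73.3 to 123 CPM at 7 weeks and 190 to 306 CPM at 13 weeks (log2 1.33 ± 0.18, adjusted p = 0.000963). Sema3a was at 56.3 to 160 CPM and 23.3 to 43.8 CPM (log2 -1.51 ± 0.23, adjusted p = 0.00184). The shares of arterial and sinusoidal cells given above also differed between these ages, and their part in these differences was not tested. Egr3, an early response transcription factor gene, was at 48.2 to 69.3 CPM and 99.7 to 173 CPM in hypertrophic GPCs (log2 1.15 ± 0.18, adjusted p = 0.00326).

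The genes most like each member across the 11 cell types of control mice were found by Pearson's r of log2(CPM + 1) over 11504 genes, as a description. Endothelial genes led for the receptors, with Rasip1 (r = 0.995) for Kdr, Cdh5 (0.991) for Flt1 and She (0.996) for Flt4. For Vegfa it was Nipal1 (0.942), for Vegfb Hibadh (0.947) and for Vegfc Ch25h (0.977), a cholesterol hydroxylase gene. For Nrp1 it was Ccser2 (0.988), for Nrp2 Tmtc2 (0.982) and for Angpt2 Slc25a25 (0.981). The next in order were Abhd12 and Slc22a21 for Vegfa, Prpsap2 and Sarnp for Vegfb, Tmbim6 and Dclk2 for Vegfc, Robo4 and Pik3r6 for Kdr, Depp1 and Ptprb for Flt1, Cldn5 and Tbc1d9 for Flt4, Ankrd40 and Tax1bp3 for Nrp1, Ppfia2 and Pdgfd for Nrp2, and Tob2 and Mpp2 for Angpt2. The 11 points share the same libraries, and Vegfd did not reach the level needed.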

How the data were processed

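Cells were prepared by digestion of femurs and tibiae, and 3′ libraries (10x Genomics Chromium, v3 chemistry) were sequenced and processed by the authors with Cell Ranger 6.1.2 on mm10. The labels name Seurat 4.3 for later steps. The deposited matrices hold raw UMI counts per gene and barcode, before the filters of the study.

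Barcodes with 200 to 6000 genes and at most 10% mitochondrial UMIs were kept. The cells most similar to simulated doublets were then removed (9.67% to 11.3% per library). Their number was set beforehand from the count of deposited barcodes and is not a measured rate of doublets. Counts were not corrected for free RNA, so a low level in a cell type can include transcripts of other cells. Cells were integrated with Seurat 5.3.0 on 2000 variable genes and 30 components, clustered by the Leiden method at resolution 1, and named from marker lists with at least 3 markers at 2-fold. Clusters of shallow or unnamed cells, 6.32% to 26.7% and 1.25% to 5.13% of a library, were left unnamed. Endothelial cells were clustered again, and sub-clusters led by at least 3 markers of another lineage left the class.

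For each cell type with at least 10 cells in every mouse, the UMI counts of a mouse were added up, in 11 cell types and 3 endothelial subtypes. edgeR 4.0.16 (quasi-likelihood, TMM scaling, low-count filter) was fitted to all 8 mice with a mean per group, and p-values were adjusted by Benjamini-Hochberg over all genes of a cell type. The SE of an edgeR log2 difference is its size divided by the square root of its F statistic, so it is derived from the test. In the unpaired fit each type had 4 residual degrees of freedom. Alternatives were DESeq2 1.42.0, library totals, no filter, other clusterings, a 5% mitochondrial limit and each mouse left out. The other alternative paired the control and the mutant that share an age and a number, as a replicate block. That fit has more terms and so leaves fewer residual degrees of freedom than the unpaired fit. Deviations of same-numbered mice from their group means correlated over 0.1 at both ages in Lepr+ MSCs, Lepr+ OPs, preOBs, OBs, hypertrophic GPCs, endothelial cells and both haematopoietic types, up to 0.559 in OBs. There the numbers were taken to pair the mice, though the labels do not say what the numbers stand for. Replicate 1 was the deeper library in all 4 groups, so this correlation cannot tell pairs of sisters apart from a shared effect of depth. The named genes were all 10 members, the 3 genes most like each, the 5 list genes with the lowest adjusted p per contrast, and Sox4. Members and lists were chosen with earlier results of these data known. Limits from a count of 0 are set at 3 UMIs and cover counting error only. The scripts were tested on simulated data.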

Additional observations from a re-analysis of the deposited data

Results flagged for a closer look

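Among 104 groups of 4 mice of 1 genotype, 10 held a mouse whose gap to the nearest of the others took up more of the group's range than Dixon's 95% critical value allows, where chance gives about 1 group in 20. In control mice, Nrp1 was at 379 CPM in the Lepr+ MSCs of the mouse 7 weeks replicate 2, with the others at 518 to 532 CPM. Nrp1 was at 38.8 CPM in the hypertrophic GPCs of the mouse 13 weeks replicate 2, with the others at 27.5 to 29.2 CPM. Nrp1 was at 481 CPM in the pericytes of the mouse 7 weeks replicate 1, with the others at 297 to 311 CPM. Nrp2 was at 431 CPM in the Lepr+ OPs of the mouse 7 weeks replicate 2, with the others at 454 to 457 CPM. Nrp2 was at 213 CPM in the pericytes of the mouse 13 weeks replicate 1, with the others at 58.4 to 82.6 CPM, and that mouse also had the most osteoblast marker UMIs of the control pericytes (31991 CPM). Vegfb was at 17.9 CPM in the pericytes of the mouse 7 weeks replicate 2, with the others at 24.7 to 26.0 CPM.

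In SOXCOsxCre mice, Nrp2 was at 101 CPM in the hypertrophic GPCs of the mouse 7 weeks replicate 2, with the others at 26.6 to 32.4 CPM, and the osteoblast marker sum there was 14724 CPM, against 4365 to 7377 CPM. Vegfa was at 246 CPM in the Lepr+ OPs of the mouse 7 weeks replicate 1, with the others at 159 to 174 CPM. Vegfa was at 206 CPM in the hypertrophic GPCs of the mouse 13 weeks replicate 2, with the others at 166 to 168 CPM. Vegfc was at 40.4 CPM in the Sca1+ MSCs of the mouse 13 weeks replicate 1, with the others at 8.07 to 12.5 CPM. The causes were not tested.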

How the results depend on the processing

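Nrp1 in OBs and preOBs, Vegfc in endothelial cells and Sox4 kept their direction and call over both ages or genotypes in every alternative that gave a value. The genotype count of 4 calls became 7 with no filter, 7 with the replicate block and 2 with no integration, and ranged from 2 to 4 with each mouse left out, reaching 2 without the control mouse 7 weeks replicate 2 or the SOXCOsxCre mouse 7 weeks replicate 1. At 7 weeks the count of 0 became 5 with no filter, 3 with the block and 2 with DESeq2, and ranged from 0 to 1 with each mouse left out. At 13 weeks the count of 2 became 6 with no filter and 4 with the block, and ranged from 1 to 2, reaching 1 without replicate 1 of either 13-week group, where Nrp1 in OBs had adjusted p = 0.0947 and 0.0691. The genotype by age count of 0 became 5 with no filter. That setting tested 138 pairs in place of 90 and gave lower adjusted p, as for Nrp1 in OBs by genotype (3.74e-33 against 0.0013). Its shares over all genes are not given, so its counts have no such reference. The same holds for every other alternative except the block over both ages. There 0.78% of all tests were called higher and 0.81% lower, against 0.145% and 0.174% in the unpaired fit. The age count of 6 became 16 with no filter and ranged from 1 to 6, reaching 1 without the SOXCOsxCre mouse 13 weeks replicate 2. The cause was not tested.

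Nrp1 in Lepr+ OPs lost its call without the control mouse 7 weeks replicate 2, the SOXCOsxCre mouse 7 weeks replicate 1, either 13-week control mouse or the SOXCOsxCre mouse 13 weeks replicate 2 (log2 0.65 to 0.77, adjusted p 0.0598 to 0.115). Kdr in OBs by age lost it without the control mouse 7 weeks replicate 2, the SOXCOsxCre mouse 7 weeks replicate 1, the control mouse 13 weeks replicate 1 or the SOXCOsxCre mouse 13 weeks replicate 2 (adjusted p 0.053 to 0.0662). Flt4 in OBs lost it without 6 of the 8 mice (adjusted p 0.0862 to 0.134). Nrp2 in pericytes was at adjusted p = 0.0526 with the block and 0.105 with no integration. In pericytes the same-numbered mice correlated at 0.119 at 7 weeks and 0.0531 at 13 weeks, which does not show that the mice were unpaired. The block changed no other call than those given, and gives no age contrast. At resolution 1.5 and with no integration 99.9% and 94.4% of the cells called preOBs were named Lepr+ OPs, so that Lepr+ OP values there hold both, and Nrp1 in them differed by 1.03 and 1.11 on the log2 scale between genotypes (adjusted p = 0.00532 and 0.00335). The naming of arterial cells, compared after seeing the data, turned the sign of their uncalled Flt4 difference. Named results were unchanged in call in 352 comparisons, gained it in 5 and lost it in 46. No called value reversed. The uncalled Vegfa difference in Lepr+ MSCs (-0.05 on the log2 scale) changed sign without either of 2 mice of 7 weeks, the control replicate 1 (0.14) and the SOXCOsxCre replicate 2 (0.14), and without the control mouse 13 weeks replicate 1 (0.02). The smallest difference that 2 mice per group can show was not measured.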
